A study of Rattus norvegicus with 9 samples.

Results

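The 44 genes described here are annotated to the breakdown of the branched-chain amino acids leucine, isoleucine and valine or to propanoate metabolism. They include genes that convert propionate to succinyl-CoA, and also acetyl-CoA carboxylases and side enzymes outside both routes. They were taken from the 22050 genes of the deposited tables by pathway annotation: a gene was kept if it carried the KEGG map ko00280 (breakdown of valine, leucine and isoleucine) or ko00640 (propanoate metabolism). Of the 66 genes with either map, 19 were left out because they also carried the map of fatty acid degradation or of PPAR signalling, and 3 by symbol alone. Of the 44, 33 carry ko00280, 22 carry ko00640 and 11 carry both, and 37 had enough reads to be tested.

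The branched-chain amino acids are essential nutrients that enter the brain through large neutral amino acid carriers. Transaminases pass their amino group to 2-oxoglutarate, which makes glutamate, and the branched-chain ketoacid dehydrogenase of the mitochondrial matrix then commits the carbon skeleton to oxidation. Leucine ends as acetyl-CoA and acetoacetate, while valine and isoleucine yield propionyl-CoA, which a biotin enzyme and a cobalamin enzyme turn into succinyl-CoA of the TCA cycle. In brain, the cytosolic transaminase encoded by Bcat1 is known chiefly from neurons.

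RNA was sequenced from rat cortical neurons in primary culture, prepared from Sprague Dawley embryos at E19 and kept in Neurobasal-A with B27, in 3 groups of 3 libraries. The first group (OGD + Wnt3a/Rspondin 1) went through oxygen-glucose deprivation and received the Wnt ligand Wnt3a at 100 ng/ml with its enhancer Rspondin 1 at 50 ng/ml, for 24 h. The second group (OGD) was held without glucose and pyruvate at 1% oxygen for 4.5 h and returned to regular medium and normal oxygen, and the deposited tables call it vehicle. The control group was untreated, so both OGD groups share the deprivation and the return to normal oxygen that controls lack. The labels state duration and oxygen for OGD alone and say nothing of when cells were harvested. Cultures with Wnt3a and Rspondin 1 but no deprivation were not analysed here. Nothing states that the libraries of a group came from separate cultures, so p-values measure the spread between these libraries, which may be technical.

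The libraries held 14285914 to 25048521 counts, and the 44 genes took 0.439% to 0.443% of them with OGD + Wnt3a/Rspondin 1, 0.453% to 0.461% with OGD and 0.377% to 0.383% in controls. OGD replicate 1 lay away from all other libraries on the second principal component, and without it the counts were 28 higher and 6 lower in OGD against control. The labelled cell type was checked against marker genes. Summed over 10 neuron markers, the level in FPKM (fragments scaled by gene length and by the library's total, as the authors deposited it) was 499 to 643 with OGD + Wnt3a/Rspondin 1, 496 to 666 FPKM with OGD and 2804 to 2936 FPKM in controls, and all 10 fell in OGD against control. Neuron markers were thus present in every library, beside astrocyte markers that summed to 6283 to 6574 FPKM with OGD + Wnt3a/Rspondin 1, 6661 to 7265 FPKM with OGD and 2469 to 2637 FPKM in controls, where 9 of 10 rose in OGD. The sum over 7 neural progenitor markers was 4023 to 4528 FPKM with OGD + Wnt3a/Rspondin 1, 4007 to 4575 FPKM with OGD and 1045 to 1178 FPKM in controls, with 5 higher and 1 lower in OGD. Oligodendrocyte lineage markers summed to 1064 to 1153 FPKM with OGD + Wnt3a/Rspondin 1, 1103 to 1112 FPKM with OGD and 436 to 522 FPKM in controls (6 of 10 higher, 3 lower). Microglial markers stayed low, at 22.7 to 26.7 FPKM with OGD + Wnt3a/Rspondin 1, 21.9 to 24.0 FPKM with OGD and 3.43 to 5.71 FPKM in controls, and all 7 tested rose. Endothelial markers were near 0 (at most 1.92 FPKM in a library, with Cldn5 at no read). Mural and fibroblast markers summed to 639 to 759 FPKM with OGD + Wnt3a/Rspondin 1, 671 to 884 FPKM with OGD and 92.5 to 116 FPKM in controls (3 of 7 tested higher, 2 lower), nearly all of it from Tagln. The marker counts are to be read beside all tested genes, of which 36.3% rose and 36.8% fell in OGD against control. In bulk RNA, fewer cells of a type and less RNA per cell cannot be told apart, and the part of these marker changes in the results below was not tested.

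OGD against control asks how deprivation and recovery changed the genes. Most of the oxidative enzymes rose by a similar amount, while the cytosolic transaminase and the cytosolic synthetases fell. In an edgeR quasi-likelihood fit with Benjamini-Hochberg adjustment over 13693 tested genes, 28 of the 37 tested genes rose (75.7%) and 6 fell, at an adjusted p under 0.05. Of all tested genes, 73.1% passed in either direction, 36.3% upward and 36.8% downward, so a change in itself was common over the whole transcriptome. The median log2 change was 0.84 for the 37 genes and 0.02 for all tested genes. At least 2-fold, 8 rose and 4 fell, where 14.2% and 18.8% of all genes did. The FPKM of the libraries did not overlap for 34 of the 37 (91.9%), against 75.3% of all genes. Of the 28 that rose, 19 lay between 0.5 and 1 on the log2 scale, 8 above 1 and 1 below 0.5, with a median of 0.88. No test was made of whether the 37 genes differ from other genes.

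**Figure D1:**
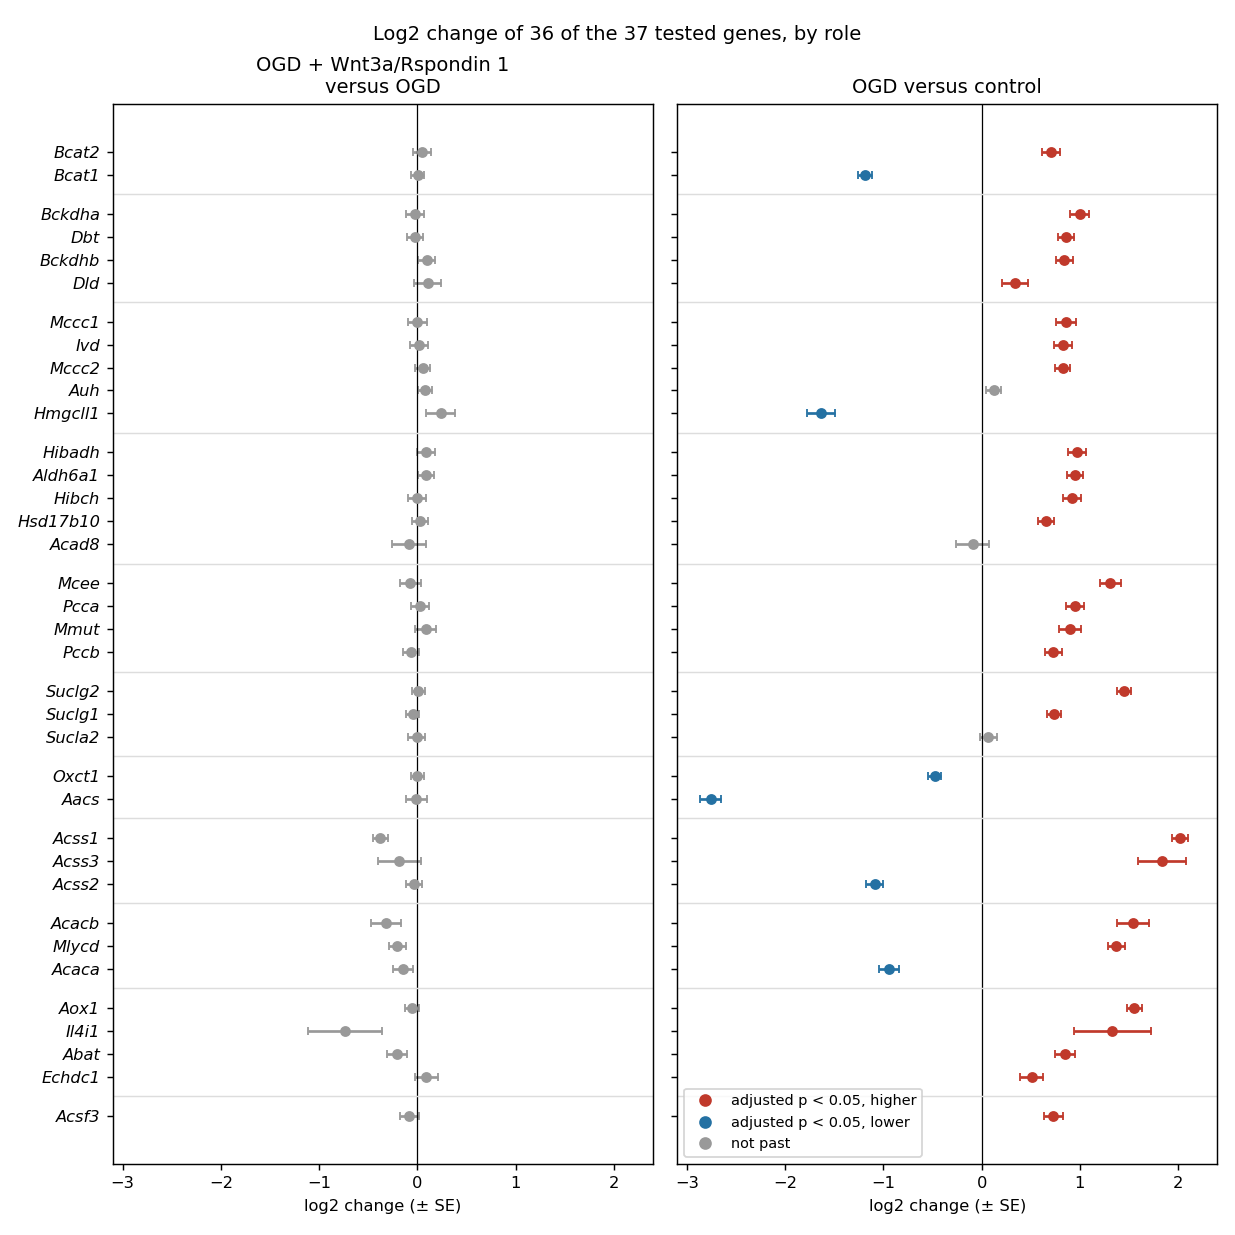
Log2 change (x axis, point ± SE) of 36 of the 37 tested genes (y axis, grouped by role from transaminases at the top to malonyl-CoA and side enzymes at the bottom), for OGD + Wnt3a/Rspondin 1 against OGD on the left and OGD against control on the right. On the right 27 points are red (higher) and 6 blue (lower), most red points lie between 0.5 and 1, and on the left no gene drawn passed the threshold.

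The first step showed opposite changes in its 2 isoenzymes. Bcat1, the cytosolic transaminase, had 206, 216 and 229 FPKM in OGD libraries, against 477, 449 and 466 FPKM in control libraries. On the log2 scale this was a fall, with a change of -1.19 ± 0.07 (± SE, adjusted p = 6.36e-09). Every OGD library lay below every control library, yet Bcat1 had the highest mean FPKM of the 37 genes in all 3 groups. Bcat2, the mitochondrial transaminase, had 17.6, 16 and 16.8 FPKM in OGD libraries, against 9.13, 10.2 and 9.79 FPKM in control libraries, and rose by 0.71 ± 0.09 (adjusted p = 1.6e-05). The ratio of Bcat1 to Bcat2 was 12.9 ± 1.1 in OGD libraries and 47.9 ± 4.2 in control libraries (mean ± SD, n = 3 each), so both changes pulled it the same way. In all, 10 such ratios between partner genes were computed. With 3 libraries against 3, a two-sided exact permutation test can give no p below 0.1, which is the value for this ratio (0.143 after Benjamini-Hochberg adjustment over the 10 ratios), as for every ratio whose libraries did not overlap.

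The branched-chain ketoacid dehydrogenase complex is built of E1 subunits from Bckdha and Bckdhb, the transacylase core from Dbt and the E3 subunit from Dld, which other dehydrogenases share. Bckdha had 65.3, 51.7 and 52.4 FPKM in OGD libraries, against 27.7, 25.9 and 26.4 FPKM in controls, and rose by 1.00 ± 0.10 on the log2 scale. For Bckdhb the values were 42.8, 45.9 and 38.8 FPKM in OGD libraries, against 20.9, 23.2 and 23.1 FPKM in controls, a rise of 0.84 ± 0.09. Dbt, with 17.0, 18.2 and 17.5 FPKM in OGD libraries against 8.05, 9.58 and 9.82 FPKM in controls, rose by 0.86 ± 0.08. The 3 genes particular to the complex thus moved by nearly the same factor (adjusted p of 9.15e-07, 1.49e-06 and 9.96e-07). Their groups did not overlap, as for 75.3% of all tested genes. The ratio of Bckdha to Bckdhb overlapped between the groups, at 1.33 ± 0.20 in OGD and 1.20 ± 0.11 in control libraries (exact permutation p = 0.3, adjusted 0.375). Dld, the shared subunit, had 40.8, 65.9 and 55.9 FPKM in OGD libraries, against 35.8, 40.4 and 45.0 FPKM in controls. Its OGD and control libraries overlapped, and its rise of 0.34 ± 0.14 passed narrowly (adjusted p = 0.0394). The call on Dld was lost without OGD replicate 2 (log2 change 0.18, adjusted p = 0.21), OGD replicate 3 (0.0823), control replicate 1 (0.142) or control replicate 2 (0.073), with only the 6 libraries compared (0.0586) and with no filter on low counts (0.0592).

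The proteins that act on the complex were read from a list of 6 genes for its kinase, phosphatase, carrier and lipoate attachment, of which 4 rose and 0 fell. Of all tested genes, 36.3% rose and 36.8% fell. Bckdk, the kinase that switches the complex off, had 62.9, 53.8 and 52.8 FPKM in OGD libraries, against 24.1, 27.3 and 22.9 FPKM in controls. It rose by 1.11 ± 0.09 (adjusted p = 2.43e-07), about as much as the subunits it acts on. Lias, the lipoate synthase, rose by 0.95 ± 0.12. Lipt1, which moves lipoate onto the E2 subunits, rose by 0.94 ± 0.21 at a low level (0.42 to 1.09 FPKM over all libraries). Lipt2 and Slc25a44 did not pass. Among 7 large neutral amino acid transporters, 4 rose and 1 fell, to be read beside the same shares of all tested genes. Slc3a2, the heavy chain of the main exchangers, rose by 1.31 ± 0.07 and its light chain Slc7a8 by 1.25 ± 0.08. Slc6a17, a transporter of neuronal synaptic vesicles, fell by 2.67 ± 0.13 to 7.99, 8.13 and 11.2 FPKM in OGD libraries, against 56.8, 53.8 and 52.6 FPKM in controls.

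In the leucine branch, 4 of 6 genes rose, where 36.3% of all tested genes rose and 36.8% fell. The hydratase Auh did not pass and the extramitochondrial lyase Hmgcll1 fell. Ivd, isovaleryl-CoA dehydrogenase, had 75.5, 62.2 and 61.5 FPKM in OGD libraries, against 36.8, 36.0 and 32.9 FPKM in controls, and rose by 0.83 ± 0.09 on the log2 scale (adjusted p = 3.64e-06). Mccc1, the biotin-bearing subunit of methylcrotonyl-CoA carboxylase, had 20.5, 20.8 and 17.5 FPKM in OGD libraries, against 9.38, 11.3 and 9.90 FPKM in controls, a rise of 0.86 ± 0.10. Mccc2, its partner subunit, had 38.4, 35.4 and 35.8 FPKM in OGD libraries, against 18.7, 21.0 and 18.8 FPKM in controls, a rise of 0.82 ± 0.08. The ratio of Mccc1 to Mccc2 overlapped between groups, at 0.536 ± 0.049 in OGD and 0.523 ± 0.019 in control libraries (exact permutation p = 0.8, adjusted 0.8). Auh, which hydrates methylglutaconyl-CoA and also binds AU-rich RNA, had 34.6, 34.4 and 34.0 FPKM in OGD libraries, against 28.8, 30.5 and 29.8 FPKM in controls. The libraries did not overlap, but its log2 change of 0.12 ± 0.08 did not pass (adjusted p = 0.159). Scaling by library totals alone in place of TMM gave 0.21 and a pass (adjusted p = 0.023).

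Hmgcll1, a lyase for hydroxymethylglutaryl-CoA outside mitochondria, had 1.45, 2.08 and 1.95 FPKM in OGD libraries, against 4.82, 5.25 and 6.11 FPKM in controls, and fell by 1.64 ± 0.14 (adjusted p = 2.7e-07). Every OGD library lay below every control library.

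Of 6 genes listed for the valine and isoleucine branch, 5 are among the 44. Of these 4 rose, where 36.3% of all tested genes did. Hibch, which frees hydroxyisobutyrate from CoA, had 26.0, 29.9 and 28.5 FPKM in OGD libraries, against 12.6, 14.4 and 15.4 FPKM in controls, a rise of 0.91 ± 0.09 on the log2 scale (adjusted p = 1.13e-06). Hibadh, the next dehydrogenase, had 42.0, 54.0 and 47.0 FPKM in OGD libraries, against 23.1, 22.2 and 23.3 FPKM in controls, a rise of 0.97 ± 0.09 (adjusted p = 6.02e-07). Aldh6a1, methylmalonate semialdehyde dehydrogenase, had 56.4, 68.0 and 66.6 FPKM in OGD libraries, against 28.7, 32.0 and 32.4 FPKM in controls, a rise of 0.95 ± 0.08 (adjusted p = 2.51e-07). These 3 consecutive enzymes of valine oxidation were at about 2 times the control level, with OGD replicate 1 lowest in each. Hsd17b10, of the isoleucine branch and of mitochondrial tRNA processing, had 99.4, 97.0 and 90.9 FPKM in OGD libraries, against 58.0, 58.9 and 55.6 FPKM in controls, and rose by 0.65 ± 0.08 (adjusted p = 1.08e-05). Acad8, isobutyryl-CoA dehydrogenase, had 6.74, 4.25 and 5.44 FPKM in OGD libraries, against 5.80, 5.60 and 5.01 FPKM in controls. The groups overlapped for Acad8, the lowest of the branch in FPKM, and its log2 change of -0.09 ± 0.17 did not pass (adjusted p = 0.635).

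Of 5 genes listed for the steps from propionyl-CoA to succinyl-CoA, 4 are among the 44. All 4 rose, where 36.3% of all tested genes did. Pcca, the biotin-bearing subunit of propionyl-CoA carboxylase, had 15.4, 15.2 and 15.3 FPKM in OGD libraries, against 6.82, 8.20 and 7.46 FPKM in controls, a rise of 0.95 ± 0.09 on the log2 scale. Pccb, its partner, had 60.1, 52.3 and 54.6 FPKM in OGD libraries, against 32.7, 32.4 and 29.8 FPKM in controls, a rise of 0.73 ± 0.09. The ratio of these subunits, Pcca to Pccb, did not overlap between the groups and was 0.276 ± 0.018 in OGD libraries and 0.237 ± 0.025 in control libraries (exact permutation p = 0.1, adjusted 0.143). Mcee, the epimerase of methylmalonyl-CoA, had 38.1, 40.7 and 35.6 FPKM in OGD libraries, against 13.0, 16.3 and 14.4 FPKM in controls, a rise of 1.31 ± 0.11. Mmut, the cobalamin-dependent mutase, had 11.5, 16.2 and 14.3 FPKM in OGD libraries, against 6.92, 7.19 and 7.15 FPKM in controls, a rise of 0.90 ± 0.11. No library of one group reached the other for any of the 4, as for 75.3% of all tested genes. Their adjusted p ranged from 1.78e-07 (Mcee) to 6.22e-06 (Mmut).

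Cofactor genes were read from lists of their own, to be set beside all tested genes, of which 36.3% rose and 36.8% fell. Of 4 biotin genes, 3 rose and 1 fell. Hlcs, which attaches biotin to the carboxylases, rose by 1.82 ± 0.12. Pyruvate carboxylase (Pc) rose by 1.33 ± 0.08 and biotinidase (Btd) by 0.87 ± 0.11. The vitamin transporter gene Slc5a6 passed narrowly, with a log2 change of -0.26 ± 0.11 (adjusted p = 0.0445). Its OGD and control libraries overlapped, and its FDR as deposited by the authors was 0.0842. Of 10 cobalamin genes, 6 rose and 1 fell. The rises included Tcn2, the plasma carrier (1.73 ± 0.09), its receptor Cd320 (1.26 ± 0.12) and the lysosomal exporter subunit Abcd4 (1.24 ± 0.12). Mmaa and Mmab, which load the cofactor onto the mutase, did not pass, with log2 changes of -0.13 ± 0.14 and -0.22 ± 0.11.

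Succinyl-CoA ligase, which returns succinyl-CoA carbon to the TCA cycle as succinate, showed a shift between its 2 alternative beta subunits. Suclg2, the GTP-forming beta subunit, had 73.4, 79.6 and 77.9 FPKM in OGD libraries, against 24.7, 27.7 and 27.4 FPKM in controls, and rose by 1.45 ± 0.07 on the log2 scale (adjusted p = 1.74e-09). Sucla2, the ATP-forming beta subunit, had 45.8, 57.1 and 51.6 FPKM in OGD libraries, against 43.9, 46.3 and 48.7 FPKM in controls, with a log2 change of 0.07 ± 0.08 (adjusted p = 0.477). Suclg2 was thus the higher of the pair in every OGD library and the lower in every control library. Their ratio was 1.5 ± 0.10 in OGD libraries and 0.574 ± 0.020 in control libraries (exact permutation p = 0.1, adjusted 0.143). The common alpha subunit Suclg1 had 118, 127 and 123 FPKM in OGD libraries, against 65.1, 69.6 and 73.7 FPKM in controls, and rose by 0.74 ± 0.07. For scale, 9 of 12 other TCA cycle genes rose and 1 fell, where 36.3% and 36.8% of all tested genes did. Their median log2 change was smaller, at 0.41, with Sdhc at 0.70 ± 0.07 and Idh3b at 0.59 ± 0.09.

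Of 5 genes listed for ketone body use, 2 are among the 44, and both fell, where 36.8% of all tested genes did. Aacs, the cytosolic acetoacetyl-CoA synthetase that feeds acetoacetate into lipid synthesis, had 11.5, 8.87 and 10.5 FPKM in OGD libraries, against 68.8, 68.5 and 58.7 FPKM in controls. Its fall of 2.76 ± 0.11 on the log2 scale had the greatest size among the 37 genes (adjusted p = 5.08e-10), and by mean FPKM it ranked 32 of 37 in OGD and 5 of 37 in control. Oxct1, the mitochondrial CoA transferase that starts ketone body oxidation, had 107, 121 and 117 FPKM in OGD libraries, against 143, 153 and 155 FPKM in controls. It fell by 0.48 ± 0.07 (adjusted p = 2.64e-05), the only fall among the enzymes that the sorting by hand below places in mitochondria.

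The acyl-CoA synthetases for acetate and propionate divided by location. Acss1, the mitochondrial acetyl-CoA synthetase, had 219.7, 181 and 188 FPKM in OGD libraries, against 44.8, 46.0 and 46.4 FPKM in controls, and rose by 2.02 ± 0.08 on the log2 scale (adjusted p = 6.65e-10). Acss2, the synthetase of cytosol and nucleus, had 19.2, 20.2 and 20.6 FPKM in OGD libraries, against 42.1, 42.3 and 36.0 FPKM in controls, and fell by 1.09 ± 0.08 (adjusted p = 9.08e-08). Acss1 exceeded Acss2 in every library, with a ratio of Acss1 to Acss2 of 9.85 ± 1.36 in OGD libraries and 1.15 ± 0.12 in control libraries (exact permutation p = 0.1, adjusted 0.143). Acss3, a mitochondrial synthetase with a preference for propionate, had 1.12, 1.00 and 1.14 FPKM in OGD libraries, against 0.22, 0.42 and 0.25 FPKM in controls, and rose by 1.83 ± 0.25 at a low level.

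**Figure D2:**
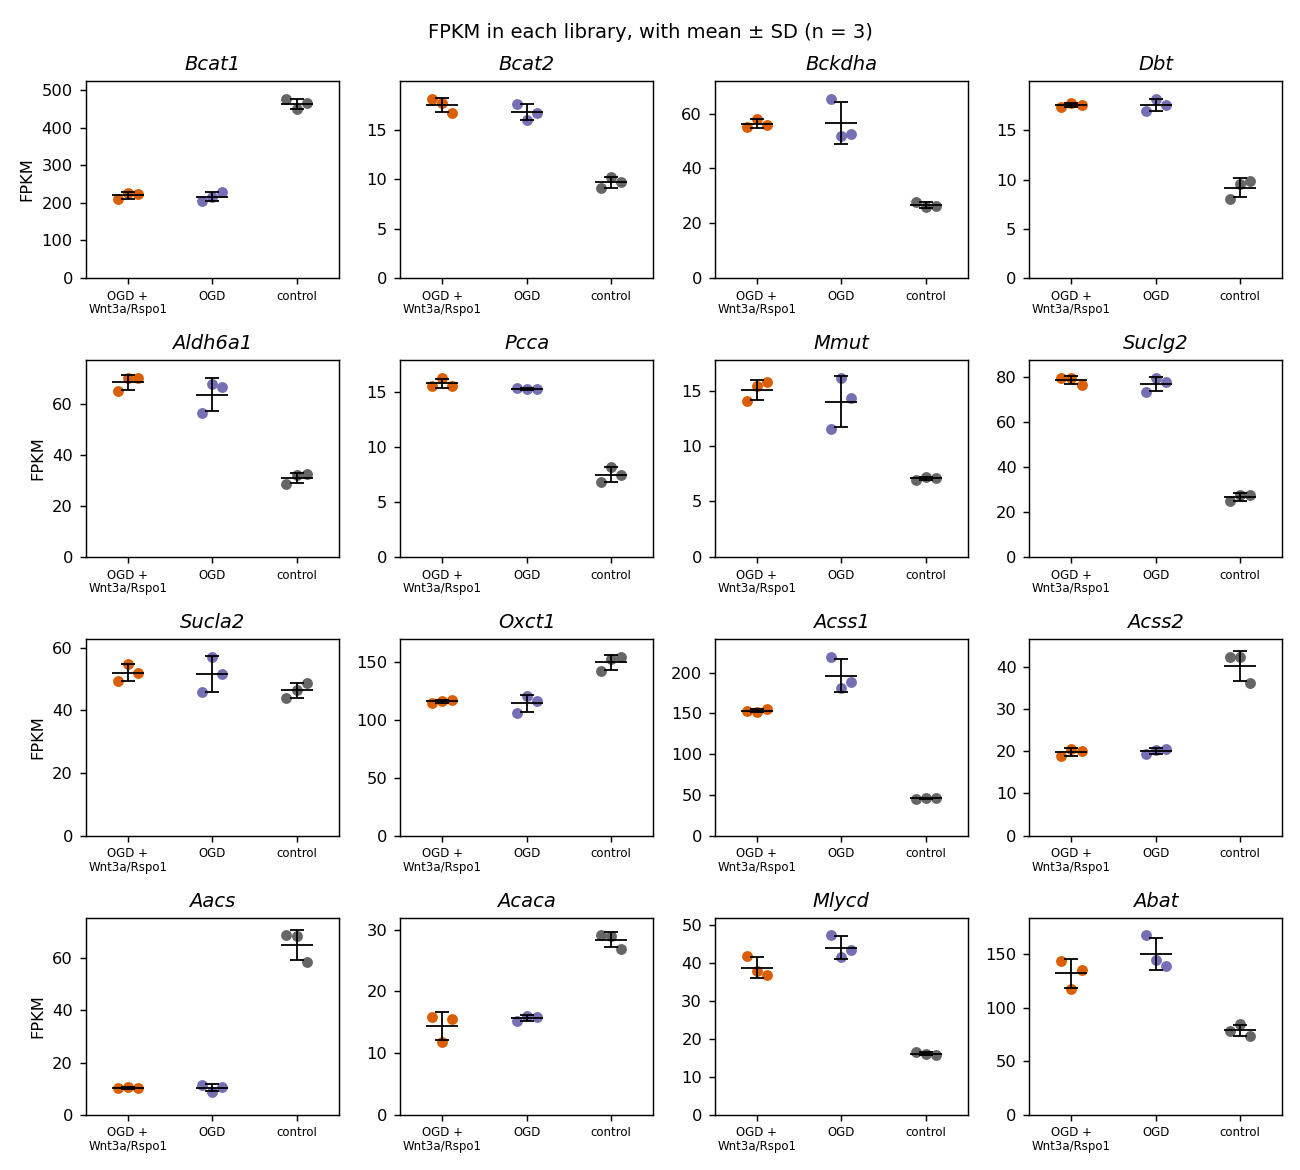
FPKM (y axis, from 0) in each of 3 libraries per group for 16 of the genes, with OGD + Wnt3a/Rspondin 1 at left, OGD in the middle and control at right. Points are libraries, the long bar is the mean and the error bar the SD. Bcat1, Oxct1, Acss2, Aacs and Acaca lie lower in both OGD groups than in control. Sucla2 overlaps control with OGD and lies just above it with OGD + Wnt3a/Rspondin 1, and the others lie higher in both.

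The malonyl-CoA genes also split. Acaca, the cytosolic acetyl-CoA carboxylase of fatty acid synthesis, had 15.2, 16 and 15.9 FPKM in OGD libraries, against 29.1, 29.1 and 27.0 FPKM in controls, and fell by 0.94 ± 0.10 on the log2 scale (adjusted p = 2.24e-06). Acacb, the carboxylase at the mitochondrial surface, had 4.40, 3.08 and 3.33 FPKM in OGD libraries, against 1.19, 1.26 and 1.05 FPKM in controls, and rose by 1.54 ± 0.16 (adjusted p = 1.53e-06). Mlycd, the decarboxylase that removes malonyl-CoA, had 47.3, 41.5 and 43.5 FPKM in OGD libraries, against 16.5, 16.1 and 15.7 FPKM in controls, and rose by 1.37 ± 0.09 (adjusted p = 1.33e-08). Mlycd was above Acaca in every OGD library and below it in every control library, with a ratio of Mlycd to Acaca of 2.82 ± 0.27 in OGD and 0.567 ± 0.014 in control libraries (exact permutation p = 0.1, adjusted 0.143). Acsf3, the mitochondrial malonyl-CoA synthetase, rose by 0.73 ± 0.10 (21.5 to 26.4 FPKM in OGD libraries and 13.3 to 13.7 FPKM in control libraries).

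**Figure D3:**
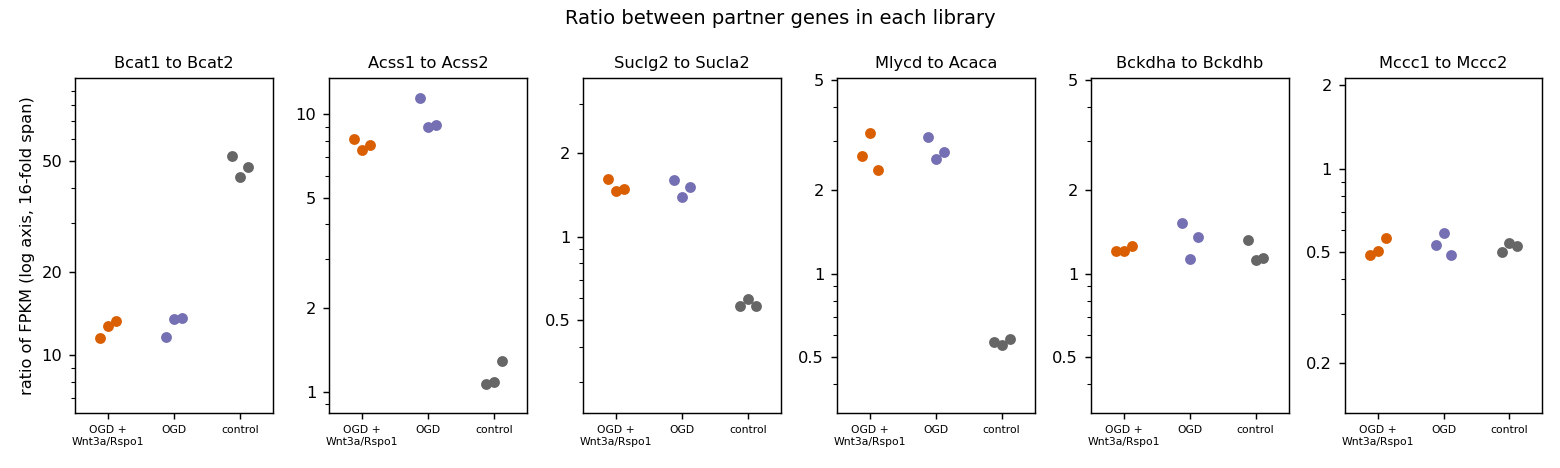
Ratio of the FPKM of partner genes (y axis, logarithmic, each panel spanning 16-fold) in each library, with OGD + Wnt3a/Rspondin 1 at left, OGD in the middle and control at right. The ratios of Bcat1 to Bcat2, Acss1 to Acss2, Suclg2 to Sucla2 and Mlycd to Acaca do not overlap between either OGD group and control, while those of Bckdha to Bckdhb and Mccc1 to Mccc2, subunits of the same complex, overlap in all groups. The ratio of Pcca to Pccb, also subunits of the same complex, is not drawn and did not overlap between either OGD group and control.

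Among side enzymes, 4 were tested and all 4 rose, where 36.3% of all tested genes did. Abat, which breaks down GABA and beta-alanine, had 167, 145 and 139 FPKM in OGD libraries, against 78.1, 84.2 and 73.5 FPKM in controls, a rise of 0.85 ± 0.10 on the log2 scale (adjusted p = 5.17e-06). Aox1, an aldehyde oxidase, had 38.3, 35.1 and 38.0 FPKM in OGD libraries, against 11.2, 12.3 and 12.3 FPKM in controls, a rise of 1.55 ± 0.08 (adjusted p = 1.93e-09). Echdc1, a cytosolic decarboxylase that clears ethylmalonyl-CoA, had 16.6, 22.4 and 21.0 FPKM in OGD libraries, against 12, 14.3 and 13.5 FPKM in controls, a rise of 0.51 ± 0.12 (adjusted p = 0.00189). The groups did not overlap for any of these 3, as for 75.3% of all tested genes. Il4i1, a secreted amino acid oxidase, was near the limit of detection, with 1.31, 0.51 and 1.32 FPKM in OGD libraries, against 0.31, 0.49 and 0.35 FPKM in controls. These were 36, 22 and 40 counts against 12, 15 and 17 counts, from libraries of unequal depth. Il4i1 rose by 1.33 ± 0.40 (adjusted p = 0.00849), with OGD replicate 2 close to control replicate 2 in FPKM. Of the 7 genes that were not tested, Agxt2 had no read in any library and Aox2, Aox3, Aox4, Lao1, Ldhc and RGD1308564 had at most 7 counts in any library.

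By the annotation in the tables, 24 tested genes of the pathway belong to the mitochondrion, of which 20 rose and 2 fell with a median log2 change of 0.84. Of all 1085 tested genes with that annotation, 524 rose and 256 fell, and the median was 0.25. Of the 13 tested genes of the pathway without it, 8 rose and 4 fell, with a median of 0.73, so the median was positive on both sides. This annotation leaves out Bckdha, Mcee, Mmut, Pcca, Pccb and Acad8, whose products are known from mitochondria, and includes Bcat1. The genes were therefore also sorted by hand by where their products are known to work, a grouping made after the values were seen, for which no test is given and whose counts are not to be set against those of all annotated genes. Of 29 tested genes for mitochondrial enzymes, 25 rose, 1 fell (Oxct1) and 3 did not pass (Acad8, Auh and Sucla2), with a median log2 change of 0.85. Of 8 tested genes for enzymes elsewhere, 3 rose (Aox1, Echdc1 and Il4i1) and 5 fell (Aacs, Acaca, Acss2, Bcat1 and Hmgcll1), with a median of -1.02, whose sign thus depends on the sorting. From a list of 10 genes of leucine sensing upstream of mTORC1, 5 rose and 3 fell (Castor2, Mtor and Rraga). Of all tested genes, 36.3% rose and 36.8% fell. The smallest adjusted p in this list belonged to the sestrin gene Sesn3 (1.43 ± 0.11), the leucine-binding sestrin Sesn1 (0.93 ± 0.14) and the arginine sensor Castor1 (1.65 ± 0.28).

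**Figure D4:**
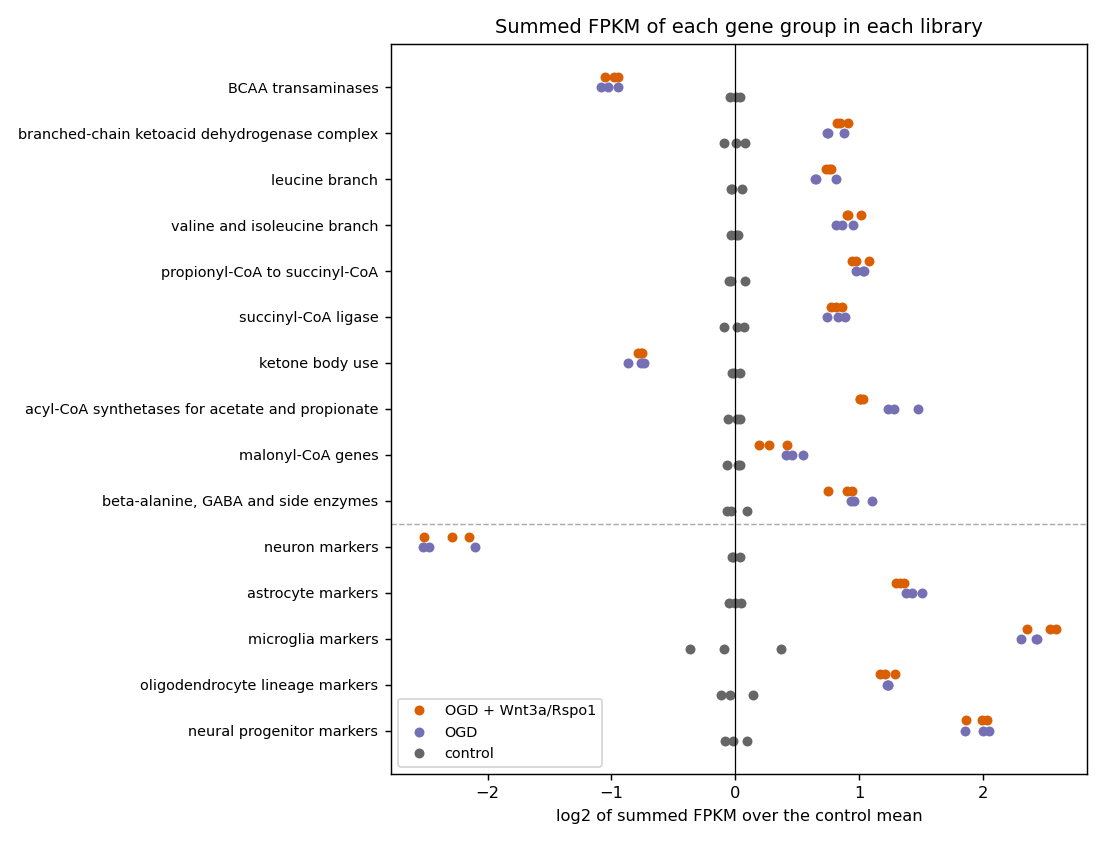
Log2 of the summed FPKM of each group of genes over its mean in controls (x axis) in each library, for the roles of the pathway genes above the dashed line and cell type markers below it. BCAA transaminases, ketone body genes and neuron markers lie left of 0 in both OGD groups, all other groups shown lie right of 0, and the 2 OGD groups lie close to each other.

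Promoters are shown for 4 of the oxidative enzymes that rose together (E1 beta and E2 of the ketoacid dehydrogenase, and the valine and propionate enzymes Aldh6a1 and Mmut) and for the transaminases that moved apart. The sequences come from RefSeq on the build GRCr8, which held an entry for 35 of the 44 genes (the first was used for 5 genes with more than 1), and each is the 250 bases before the annotated start, read 5′ to 3′ on the gene's strand. They lie at chr8:93725027-93725276 (plus strand) for Bckdhb, chr2:207166410-207166659 (plus strand) for Dbt, chr6:109829726-109829975 (minus strand) for Aldh6a1, chr9:27454124-27454373 (minus strand) for Mmut, chr1:105178889-105179138 (plus strand) for Bcat2 and chr4:179777289-179777538 (minus strand) for Bcat1. Capitals mark the letters CCAAT or, on the other strand, ATTGG.
Bckdhb: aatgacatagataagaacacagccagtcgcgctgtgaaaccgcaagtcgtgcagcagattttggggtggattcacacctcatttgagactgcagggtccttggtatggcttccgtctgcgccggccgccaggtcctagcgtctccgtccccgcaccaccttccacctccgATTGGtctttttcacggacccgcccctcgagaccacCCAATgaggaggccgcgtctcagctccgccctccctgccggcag
Dbt: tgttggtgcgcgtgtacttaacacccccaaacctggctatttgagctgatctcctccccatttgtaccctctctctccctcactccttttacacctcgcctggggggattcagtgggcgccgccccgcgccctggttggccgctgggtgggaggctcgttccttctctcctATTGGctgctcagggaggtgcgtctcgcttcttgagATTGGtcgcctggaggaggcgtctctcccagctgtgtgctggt
Aldh6a1: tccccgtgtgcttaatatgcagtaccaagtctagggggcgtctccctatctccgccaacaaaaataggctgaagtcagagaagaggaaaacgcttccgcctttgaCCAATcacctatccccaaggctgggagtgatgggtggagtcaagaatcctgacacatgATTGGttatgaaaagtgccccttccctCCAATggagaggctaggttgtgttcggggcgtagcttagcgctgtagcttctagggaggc
Mmut: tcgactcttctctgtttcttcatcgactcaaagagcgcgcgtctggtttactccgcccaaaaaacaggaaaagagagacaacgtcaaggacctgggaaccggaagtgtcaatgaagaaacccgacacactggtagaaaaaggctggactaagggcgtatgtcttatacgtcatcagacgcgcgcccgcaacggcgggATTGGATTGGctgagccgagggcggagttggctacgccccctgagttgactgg
Bcat2: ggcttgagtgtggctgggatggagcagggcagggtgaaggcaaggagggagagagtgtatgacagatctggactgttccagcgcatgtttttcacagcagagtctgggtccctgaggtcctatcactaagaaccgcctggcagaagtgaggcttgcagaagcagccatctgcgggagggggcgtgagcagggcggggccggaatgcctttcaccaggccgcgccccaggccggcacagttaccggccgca
Bcat1: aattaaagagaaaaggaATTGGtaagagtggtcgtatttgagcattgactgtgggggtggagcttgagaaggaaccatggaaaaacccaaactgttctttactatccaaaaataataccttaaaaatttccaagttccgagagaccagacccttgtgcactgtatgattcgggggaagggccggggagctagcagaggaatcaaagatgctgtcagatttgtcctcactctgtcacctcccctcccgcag

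CCAAT was found on either strand in 17 of the 35 promoters, in 14 of the 21 of genes that rose and in 2 of the 5 of genes that fell in OGD. In the same window, 35.5% of 19005 promoters of protein-coding genes held it. Bckdhb, Dbt, Aldh6a1 and Mmut, shown above, all held it, so they do not stand for all 21. Bckdhb and Dbt, which encode subunits of the same complex, each held a pair with the same spacing but not the same orientation. The pair started 80 and 44 bases before the start in Bckdhb (ATTGG, then CCAAT) and 79 and 43 bases before it in Dbt (ATTGG both times). Mmut held 2 adjoining copies, Aldh6a1 held 3, Bcat1 held 1 that was far from the start (233 bases before it) and Bcat2 held 0. Other motifs searched on both strands were rarer. The NRF1 motif (GCGCA, any base, then GCGC) was in 3 member promoters (Aacs, Hibadh and Sucla2; 5.45% of all), CCGGAAG, the ETS motif, in 3 (9.52%) and AAGGTCA, the motif of estrogen-related receptors, in 2 (Acacb and Mcee; 3.21%). TCACNCCAC, a form of the sterol response element, was in 3 (Echdc1, Ivd and Mccc1, against 0.916% of all). None of the 5 promoters of genes that fell held it, which are too few for a comparison with so rare a motif. A match describes the letters only, and the median GC content was 56.4% for the 35 promoters and 54.8% for all. The median number of CG pairs was 12 for the 35 and 9 for all. It was 14 for the 21 of genes that rose and 13 for the 5 of genes that fell. The 19005 promoters were not limited to genes tested here and were not matched by composition.

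OGD + Wnt3a/Rspondin 1 against OGD addresses the stated purpose of the series, the effect of the 2 proteins on neurons under deprivation. By edgeR with Benjamini-Hochberg adjustment, none of the 37 genes rose and none fell, where 27 of 13693 tested genes passed (0.197%), 24 higher (0.175%) and 3 lower (0.0219%). At an unadjusted p under 0.05 there were 2 of the 37 (Acss1 and Mlycd), which is near the 5.73% of all tested genes, and DESeq2 called 1, Acss1, lower. The log2 changes ran from -0.74 (Il4i1) to 0.23 (Hmgcll1) with a median of -0.01, and 28 of 37 lay within 0.1 of 0. FPKM of the libraries did not overlap for 2 genes that were higher (Auh and Pcca) and 1 that was lower (Acss1), against 9.73% of all genes.

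The genes with the smallest p were all lower with the proteins. Acss1 had 154, 152 and 155 FPKM in OGD + Wnt3a/Rspondin 1 libraries, against 219.7, 181 and 188 FPKM in OGD libraries. Its libraries did not overlap, and the log2 change was -0.38 ± 0.08 with an adjusted p of 0.101 by edgeR, which ranged from 0.0501 to 0.416 over the alternatives of that test and was 0.0031 by DESeq2. In the authors' deposited table its FDR was 0.0307 with a log2 change of -0.36. Mlycd had 41.9, 37.9 and 36.7 FPKM in OGD + Wnt3a/Rspondin 1 libraries, against 47.3, 41.5 and 43.5 FPKM in OGD libraries, with a log2 change of -0.20 ± 0.08 (adjusted p = 0.785). Abat had 143, 117 and 135 FPKM in OGD + Wnt3a/Rspondin 1 libraries, against 167, 145 and 139 FPKM in OGD libraries, with a log2 change of -0.21 ± 0.10 (adjusted p = 0.907). The groups overlapped for Mlycd and for Abat. OGD replicate 1 was the highest library for all 3 genes, and without it the change in Acss1 was -0.28.

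Of the genes that had changed at least 2-fold in OGD, some lay close between the OGD groups and others did not, and none passed. Bcat1 had 211, 228 and 223 FPKM in OGD + Wnt3a/Rspondin 1 libraries, against 206, 216 and 229 FPKM in OGD libraries, and their ranges were nearly alike. Aacs had 10.2, 10.7 and 10.04 FPKM in OGD + Wnt3a/Rspondin 1 libraries, against 11.5, 8.87 and 10.5 FPKM in OGD libraries. Suclg2 had 79.5, 79.7 and 76.6 FPKM in OGD + Wnt3a/Rspondin 1 libraries, against 73.4, 79.6 and 77.9 FPKM in OGD libraries. The libraries of these 3 overlapped between the groups. Acacb (-0.32 ± 0.15 on the log2 scale), Hmgcll1 (0.23 ± 0.15) and Acss3 (-0.18 ± 0.22), which had changed more in OGD than Bcat1 or Suclg2, also overlapped between the OGD groups but had larger estimates, as did Acss1 above. The ketoacid dehydrogenase subunits, with log2 changes between -0.03 (Bckdha) and 0.10 (Dld), overlapped as well. Of the marker genes, only Gja1, an astrocyte connexin, passed (0.38, adjusted p = 0.0404).

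OGD + Wnt3a/Rspondin 1 against control shares its controls with OGD against control, so the values stand side by side and are not independent. Against control, 28 of the 37 genes rose and 6 fell, where 36.6% and 36.0% of all genes did (72.6% in either direction), and the median log2 change was 0.80. Of the 28 genes higher in OGD, 27 were also higher here, and all 6 lower ones were also lower. The exception was Il4i1 (0.59 ± 0.41, adjusted p = 0.216), while Auh passed here (0.20 ± 0.08, adjusted p = 0.0292). For Acss1 the log2 change was 1.64 ± 0.08 against control with OGD + Wnt3a/Rspondin 1 and 2.02 ± 0.08 with OGD. For Dld it was 0.44 ± 0.14 (adjusted p = 0.0106) with OGD + Wnt3a/Rspondin 1 and 0.34 ± 0.14 with OGD. Bcat1 gave -1.19 ± 0.07 and Aacs -2.77 ± 0.11 with the proteins, the same within error as OGD alone. Within a group the libraries agreed closely, with a median coefficient of variation over the 37 genes of 4.53% with OGD + Wnt3a/Rspondin 1, 8.43% with OGD and 6.15% in control.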

How the data were processed

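RNA of 9 libraries was read from the deposited tables. Libraries came from an Illumina TruSeq kit, per the labels' protocols. The authors deposited whole-number counts per gene, not normalized, and FPKM, per the file headers. FPKM is taken here in its usual sense, as counts per gene length and library total, which the headers do not define. The authors also deposited a log2 fold, p-value and FDR per comparison. The labels and headers name no test, counter or strand setting for the deposited values. Bowtie 0.12.2 and 2 builds of mouse, mm8 and mm9, appear in the submitters' processing notes, although samples and identifiers are rat, with the rat build not given in the sources used here. Reads of paralogs and of overlapping or antisense genes may therefore be split in unknown ways.

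For the tests, edgeR 4.0.16 under R 4.3.3 was run on the counts: filterByExpr (minimum count 10, minimum total 15), TMM scaling, and 1 robust quasi-likelihood fit of all 9 libraries with 3 group means (6 residual degrees of freedom, common biological coefficient of variation 10.3%). Benjamini-Hochberg adjustment ran over 13693 tested genes, and 0.05 was the threshold. The prior count behind log2 changes was 0.125. These changes are on the TMM scale, while FPKM is scaled by library totals, so a fold taken from FPKM can differ slightly. A count of 0 allows up to 3 counts in a library (0.12 to 0.21 CPM), which covers counting error only. The fit was tested on simulated data. Alternatives were DESeq2 1.42.0, other scalings, no filter, only the 6 libraries compared, a replicate block and leaving out each library. The members and all lists were chosen with earlier results of these data known. All members enter the counts; values per library are given for the genes assigned a role, for other members changed at least 2-fold and for the 3 smallest p between the OGD groups, and for at most 3 genes of a context list by adjusted p, with Slc5a6, Mmaa and Mmab added after their values were seen; 1 member and 1 context gene that this rule names are not reported here. Replicate numbers did not pair the libraries.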

Additional observations from a re-analysis of the deposited data

How the results depend on the processing

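Against control, the count of the 37 genes that rose stayed between 27 and 29 and the count that fell between 6 and 7 under every alternative, for OGD, and between 27 and 28 and between 6 and 7 for OGD + Wnt3a/Rspondin 1. Between the OGD groups no gene of the 37 passed under any alternative but DESeq2, which called 1 lower (Acss1). Over all genes, this comparison was less stable than its 24 higher and 3 lower calls: DESeq2 gave 60 higher and 39 lower, the fit with a replicate block 43 higher and 22 lower, the fit of only the 6 libraries 12 higher, RLE size factors 5 lower and no filter on low counts 7 lower. Leaving out 1 library gave 10 to 38 higher and 2 to 11 lower, the most of each without OGD replicate 1. The causes were not tested. The replicate block changed no call of the 37 genes; same-numbered libraries correlated by -0.069 to 0.273 in their deviations from the group means, and the numbers were not taken as pairs. Leaving out 1 library, the change in OGD against control ran from -0.0093 to 0.14 for Sucla2 and from -0.27 to 0.076 for Acad8, with the sign turned without OGD replicate 2 in both, and neither was called. Scaling by library totals alone moved the median of all genes against control to 0.10 for OGD (0.02 with TMM) and to 0.14 for OGD + Wnt3a/Rspondin 1 (0.03 with TMM). Depth limits what can be said of the genes at few counts: Il4i1 (12 to 40 per library) and Acss3 (21 to 107) had the largest standard errors of the 37 in OGD against control (0.40 and 0.25), and 7 genes could not be tested.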
